A study of Homo sapiens with 12 samples.

Results

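The SLC25 mitochondrial carriers are 48 human protein-coding genes with symbols that begin with SLC25A, of 20056 protein-coding genes in the gene table used. They were examined in acetylated RNA immunoprecipitation sequencing (acRIP-seq) of SW620, a colorectal cancer cell line. In acRIP-seq, RNA is broken into fragments, fragments with N4-acetylcytidine (ac4C) are pulled down with an antibody and sequenced, and stretches rich in reads are listed as peaks. The control cells carried a lentiviral control shRNA (shControl) and are labelled WT, and the other cells carried a lentiviral shRNA against NAT10 (shNAT10), the enzyme that writes ac4C. Each group had 3 immunoprecipitation libraries, and both lines were selected with puromycin and grown in L15 medium with fetal bovine serum. The methods list a pair of shRNAs against NAT10, and which of them the sequenced cells carried is not given in the sources used here. Nothing in the labels says that the libraries came from separate cultures, so p-values measure the spread between these libraries, which may be technical.

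Carriers of this family sit in the inner membrane of the mitochondrion, which is otherwise closed to charged metabolites. Each is built from repeated pairs of membrane helices and exchanges or imports a small set of substrates, such as ADP for ATP, phosphate, citrate, amino acids, cofactors or nucleotides. A few members work elsewhere, in the peroxisome or the outer mitochondrial membrane. Nuclear genes encode all of them, and the proteins reach the inner membrane through the TIM22 import pathway.

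A peak was given to a carrier when its midpoint lay in the gene span on the gene's strand, on GRCh38. The lists held 18241, 22619 and 20063 peaks in control replicates 1 to 3 and 28752, 17877 and 19047 in knockdown replicates 1 to 3, without read counts, so depth is unknown. Knockdown replicate 1 had the longest list. NAT10 itself held 1, 0 and 2 peaks in control and 2, 0 and 1 after its knockdown. Peak numbers do not measure mRNA, so they check neither the knockdown nor the markers of the cell line. The input libraries of the series were not used here, and without counts or input a change in the amount of a transcript and a change in its acetylation cannot be told apart.

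Of the 48 carriers, 36 had a peak in 1 or more libraries and 20 had a peak in all 6. That was 75.0% and 41.7% of the carriers, beside 60.3% and 29.3% of all other protein-coding genes. Carriers with a peak held fewer peaks each, 1.27 per library on average beside 1.70 in other genes with a peak. Their spans were slightly shorter, with a median of 26800 bases beside 31200. No peak was counted in SLC25A2, SLC25A5, SLC25A11, SLC25A18, SLC25A21, SLC25A26, SLC25A30, SLC25A31, SLC25A32, SLC25A39, SLC25A48 and SLC25A52. For SLC25A32 the strand could not be settled, so its peaks were left out, and SLC25A2 and SLC25A30 had no strand and no peak on either strand. SLC25A3, the phosphate carrier that feeds ATP synthase, was listed in 1 library, knockdown replicate 1.

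Carrier peaks often lay at the start of the gene. RefSeq gives 51 transcription starts for 40 of the carriers, and at 9 of them a peak with its midpoint inside the gene overlapped the first 50 transcribed bases in all 6 libraries. The start of SLC25A44 lay in a region found in all 6 but did not meet this midpoint rule, and it is counted among the other starts. These starts are shown to give the sequence under the peaks that every library listed there. Each line below gives 60 bases, 30 before the start and the first 30 transcribed, 5′ to 3′ on the gene's strand, from RefSeq on GRCh38.p14. Capitals mark the bases inside the listed peak of every library.
SLC25A4, chr4:185143236-185143295, plus strand: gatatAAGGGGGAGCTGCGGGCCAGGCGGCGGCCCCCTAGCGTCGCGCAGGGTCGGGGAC
SLC25A24, chr1:108200314-108200373, minus strand: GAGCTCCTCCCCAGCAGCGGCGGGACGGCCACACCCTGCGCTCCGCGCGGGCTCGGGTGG
SLC25A25, chr9:128098477-128098536, plus strand: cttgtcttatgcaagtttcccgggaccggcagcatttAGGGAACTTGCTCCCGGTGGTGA
SLC25A13, chr7:96322069-96322128, minus strand: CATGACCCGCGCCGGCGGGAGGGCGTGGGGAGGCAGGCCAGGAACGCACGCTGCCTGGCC
SLC25A38, chr3:39383340-39383399, plus strand: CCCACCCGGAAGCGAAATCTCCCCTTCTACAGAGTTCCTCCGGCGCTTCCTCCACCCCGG
SLC25A33, chr1:9539435-9539494, plus strand: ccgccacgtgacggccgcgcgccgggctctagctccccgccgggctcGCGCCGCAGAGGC
SLC25A51, chr9:37904098-37904157, minus strand: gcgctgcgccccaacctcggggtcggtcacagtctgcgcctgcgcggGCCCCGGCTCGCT
SLC25A46, chr5:110738977-110739036, plus strand: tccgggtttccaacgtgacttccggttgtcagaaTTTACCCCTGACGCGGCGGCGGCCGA
SLC25A53, chrX:104156980-104157039, minus strand: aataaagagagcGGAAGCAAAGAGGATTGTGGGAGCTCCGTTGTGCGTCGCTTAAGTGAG

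The windows of SLC25A13, SLC25A24 and SLC25A38 lay inside the peaks from end to end, so those peaks began before the annotated start. In SLC25A33 and SLC25A51 the shared peak began after the start and covered 13 of the 60 bases. Cytosine, the base that NAT10 acetylates, made up a median of 42.0% of the first 50 transcribed bases at these 9 starts. It made up 33.0% at the other 42 carrier starts and 28.0% at the 22199 starts of all protein-coding genes in the table. Among the 9, the share ran from 18.0% in SLC25A53 to 46.0% in SLC25A13. The letters CNN repeated 4 times, a pattern that has been described at ac4C sites, were found in the first 50 bases of 6 of the 9 starts, or 66.7%. They were found in 40.5% of the other carrier starts and 29.7% of all starts. On the opposite strand they were found at 4 of the 9 starts, 21 of the other 42 and 42.1% of all. These are matches of letters, and no site of acetylation is known from them.

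Across all their peaks, the carriers had a larger share of them near the 5′ end than other genes did, in each of the 6 libraries. In control replicates 1 to 3, 35.7%, 36.5% and 39.5% of carrier peaks had their midpoint within 500 bases of the 5′ end of the span. In knockdown replicates 1 to 3 the shares were 27.1%, 37.8% and 34.8%. In other genes they ran from 16.8% to 22.1%. The groups overlapped, with means of 37.2% ± 2.0 in control and 33.2% ± 5.52 with NAT10 knockdown (SD, n = 3 each), and the lowest share belonged to knockdown replicate 1, the longest list. The share within 500 bases of the 3′ end was also larger than in other genes in each library. It was 4.76%, 3.85% and 5.26% in control and 10.2%, 8.11% and 6.52% with NAT10 knockdown. In other genes it ran from 3.69% to 4.22%. These 3′ shares did not overlap between the groups, but they rest on few peaks. Each control library had 2 such peaks, and knockdown replicates 1 to 3 had 6, 3 and 3. Carrier peaks were also wider, with median widths of 259 to 302 bases over the libraries beside 186 to 222 in other genes. Whether gene length, exon structure or the lower number of peaks per carrier accounts for these differences was not tested.

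**Figure D1:**
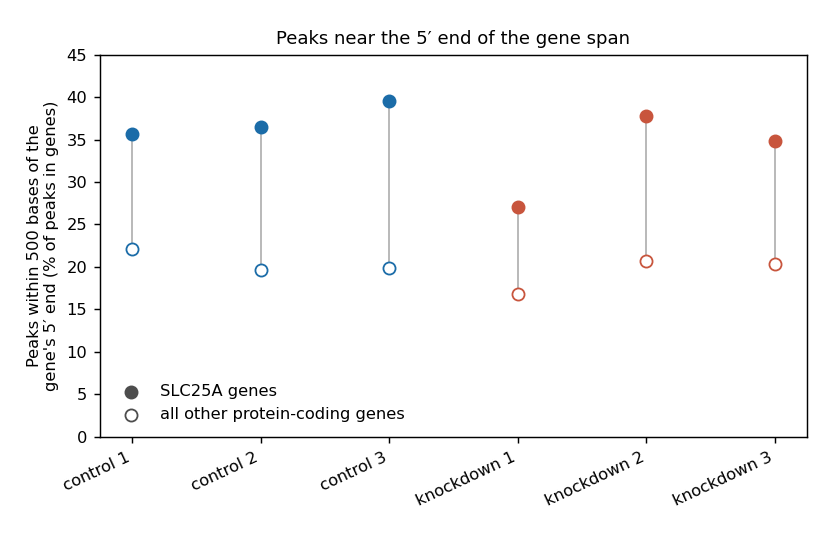
Share of peaks with the midpoint within 500 bases of the 5′ end of the gene span (%, vertical axis), by library. Filled points are the SLC25A genes and open points all other protein-coding genes, with control libraries in blue and NAT10-knockdown libraries in red; each filled point lies above its open point, and knockdown replicate 1 has the lowest filled point, at 27.1%.

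The number of carrier peaks did not separate the groups. Control replicates 1 to 3 held 42, 52 and 38 carrier peaks and knockdown replicates 1 to 3 held 59, 37 and 46. The highest number was in knockdown replicate 1 and the lowest in knockdown replicate 2, which also had the longest and the shortest list. The means were 44.0 ± 7.21 in control and 47.3 ± 11.1 with NAT10 knockdown (SD, n = 3 each), a difference smaller than either SD. As a share of the list, carrier peaks made up 0.23%, 0.23% and 0.189% in control and 0.205%, 0.207% and 0.242% with NAT10 knockdown. The number of carriers with a peak was 29, 32 and 24 in control and 32, 24 and 30 with NAT10 knockdown.

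**Figure D2:**
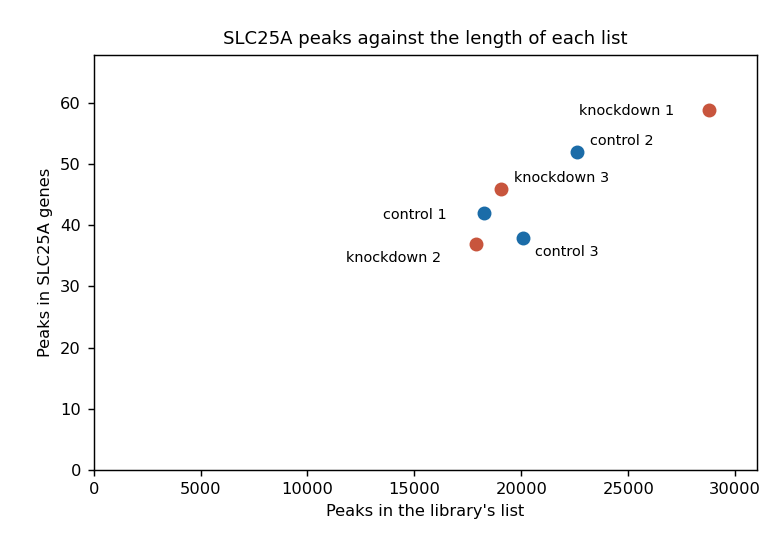
Number of SLC25A peaks (vertical axis) against the number of peaks in the list (horizontal axis) of each library, with control libraries in blue and NAT10-knockdown libraries in red. Knockdown replicate 1, with 59 carrier peaks, has the longest list, and the other libraries lie between 37 and 52.

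No carrier was listed throughout one group, in its 3 libraries, and nowhere in the other. Among the 12092 genes with a peak, 0.364% were listed in every knockdown and no control library, and 0.331% the other way round. No carrier had peak numbers that did not overlap between the groups, which 1.57% of those genes showed toward knockdown and 0.653% toward control. The smallest p of any carrier was 0.4, both by the two-sided exact permutation test of peak numbers and by Fisher's exact test of presence, and the smallest that this design allows is 0.1. The mean peak number was higher in knockdown libraries in 15 carriers, higher in control libraries in 10 and equal in 11. In 6 carriers the highest number was in knockdown replicate 1 alone.

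Adenine nucleotide carriers held the most peaks per gene. Of the 8, 6 had a peak and 4 had one in all libraries. SLC25A23, an exchanger of ATP-magnesium for phosphate that is regulated by calcium, had the most peaks of any carrier, 3, 3 and 4 in control and 6, 3 and 4 with NAT10 knockdown. Its means were 3.33 ± 0.577 and 4.33 ± 1.53 (SD, n = 3 each; exact permutation test, two-sided p = 0.7). A single wide region, chr19:6440064-6442159, had the same start and end in all 6 libraries and lay at the top rank in each. Peaks were ranked by the percentile of their score within the library, and percentiles of 85.9 and above, where the scale ends in at least 1 library, were tied as the top rank. The other SLC25A23 peaks were shorter, as the maps of peaks along 4 carriers show, and the most regular of them, chr19:6458198-6458324 and chr19:6444151-6444301, were in 5 and 4 libraries.

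Its relatives SLC25A24 and SLC25A25, with the same substrate, had a peak in all 6 libraries. SLC25A41, in the same group of adenine nucleotide carriers, had 1 peak in control replicate 2 and 1 in knockdown replicate 1 alone. SLC25A24 had 2 peaks in each library, at its start and 14452 bases downstream. The region at the start, chr1:108199571-108200675, was at the top rank in all 6. SLC25A25 had 2, 3 and 2 peaks in control and 4, 2 and 2 with NAT10 knockdown, with 1 region in all libraries at a start inside the gene, 30283 bases from the 5′ end. A second SLC25A25 region, chr9:128102370-128102481, was listed in control replicates 2 and 3 and in no knockdown library.

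The ADP/ATP exchangers proper gave few peaks. SLC25A4, the form of heart and muscle, had 1, 2 and 1 peaks in control and 2, 2 and 1 with NAT10 knockdown (exact permutation test, two-sided p = 1.0). Its region at the start, chr4:185143241-185143483, had identical ends in every library and score percentiles of 69.9, 83.7 and 80.2 in control and 80.0, 67.7 and 65.5 with NAT10 knockdown. SLC25A6, an exchanger found in most tissues, had 2, 1 and 0 peaks in control and 2, 0 and 0 with NAT10 knockdown. SLC25A5, the form of dividing cells, and SLC25A31, the form of testis, had none. The gene table holds 9 pseudogenes with symbols that begin with SLC25A5P, 6 with SLC25A6P and 3 with SLC25A3P. How reads that match several copies were treated is not given in the sources used here, so low numbers in SLC25A3, SLC25A5 and SLC25A6 are uncertain.

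Among the 5 carriers of phosphate and of di- and tricarboxylates, SLC25A10 was the one listed in every library. SLC25A10, the dicarboxylate carrier, had 2, 2 and 1 peaks in control and 4, 1 and 1 with NAT10 knockdown. Its shared region, chr17:81719976-81721016, reached the 3′ end of the gene. SLC25A1, the citrate carrier that supplies cytosolic acetyl-CoA for fatty acid synthesis, had 1 peak in every library except control replicate 3. The 2-oxoglutarate carrier SLC25A11 and the oxodicarboxylate carrier SLC25A21 had none.

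Of the 11 carriers of amino acids and carnitine, 8 had a peak and 3 had one in all libraries. SLC25A12 and SLC25A13 are the aspartate/glutamate exchangers of the malate-aspartate shuttle, called aralar and citrin. SLC25A13 had 2 peaks in each library, at its start and 25174 bases downstream. SLC25A12 had 2, 3 and 3 peaks in control and 1, 3 and 2 with NAT10 knockdown (exact permutation test, two-sided p = 0.7). Its region 25492 bases from the start had percentiles of 32.0, 66.2 and 51.8 in control and 36.5, 29.0 and 21.2 with NAT10 knockdown, which overlapped (exact permutation test, two-sided p = 0.2). SLC25A15, the ornithine carrier of the urea cycle, ranged from 0 to 3 peaks in control and from 1 to 3 with NAT10 knockdown. SLC25A20, which carries acylcarnitines for fatty acid oxidation, had 4 peaks in all, each at a different place.

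SLC25A38, a glycine carrier needed for heme synthesis, held the one carrier region that was listed throughout one group and nowhere in the other. The region, chr3:39387808-39387865 on the plus strand, is 58 bases wide, and its middle lies 4467 bases from the 5′ end of the gene. It was listed in all 3 knockdown libraries with the same start and end, at score percentiles of 72.4, 53.0 and 73.0, and in no control library. Over all 41755 regions, 0.819% were in all knockdown libraries only and 0.34% in all control libraries only, and 1 of the 89 carrier regions is 1 call at that background. The peak at the start of the gene, chr3:39383324-39383793, did not follow it. Its percentiles were 75.6, 67.2 and 76.0 in control and 81.6, 64.3 and 60.4 with NAT10 knockdown, which overlapped. The SLC25A38 peak numbers, 1, 1 and 2 in control and 2 in each knockdown library, also overlapped (exact permutation test, two-sided p = 0.4). The absence of a region from a list is not a count of 0 reads, and at an unknown depth it does not show that the stretch was not pulled down.

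**Figure D3:**
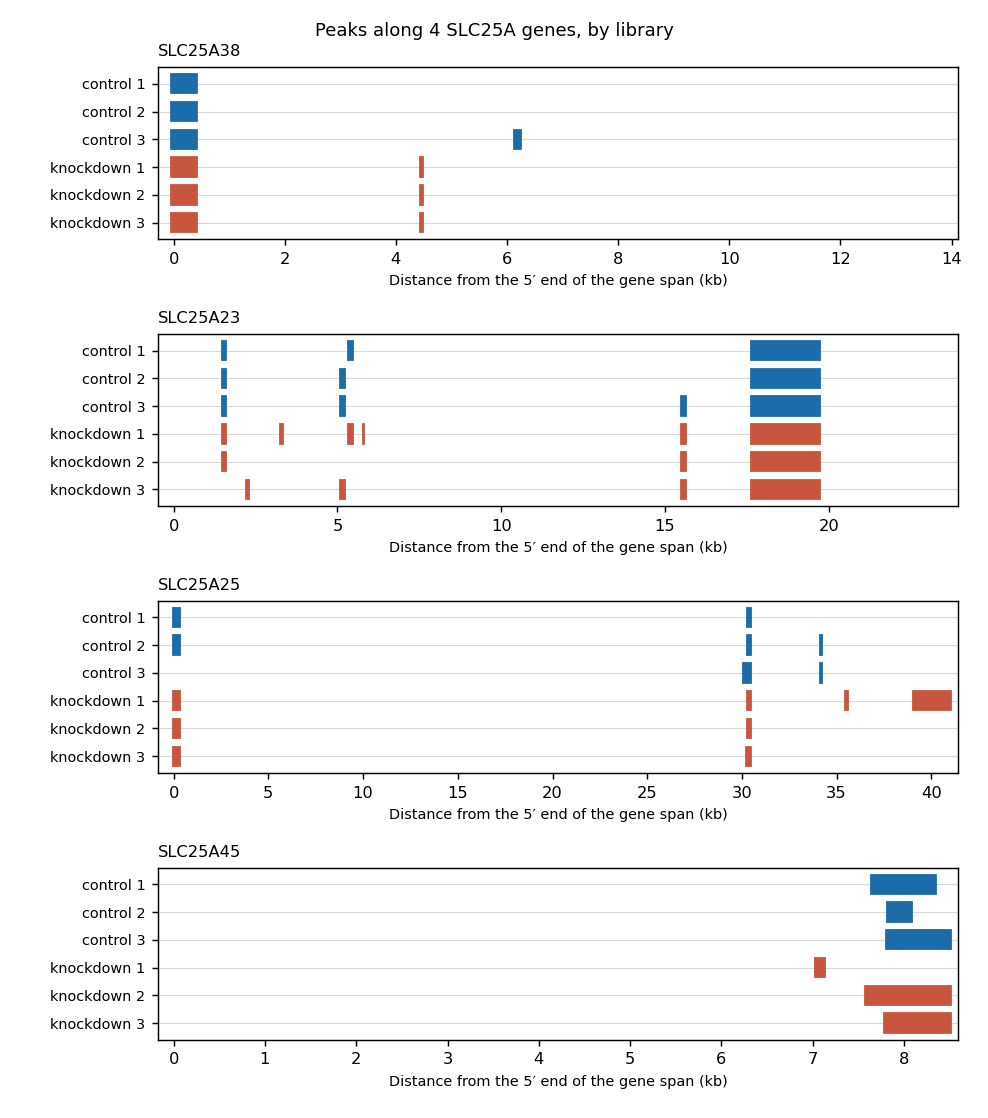
Peaks along SLC25A38, SLC25A23, SLC25A25 and SLC25A45 in each library, drawn to scale as bars against the distance from the 5′ end of the gene span (kb); the right edge of each panel is the 3′ end. In SLC25A38 the narrow bar near 4.5 kb is present in the 3 knockdown libraries only, while the bar at the start is in all 6.

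Carriers of cofactors, nucleotides, glutathione and iron were the most regularly listed group, with 8 of 14 members in all libraries. SLC25A28, mitoferrin 2, which brings iron into the mitochondrion, had 1, 2 and 2 peaks in control and 2 in each knockdown library. Its region chr10:99620045-99620364 had percentiles of 53.1, 37.3 and 24.0 in control and 78.4, 62.9 and 51.6 with NAT10 knockdown. That was the widest gap between group means of the shared carrier regions, 38.1 ± 14.6 against 64.3 ± 13.4 (SD, n = 3 each), and the lowest knockdown value still lay below the highest control value (exact permutation test, two-sided p = 0.2). SLC25A37, mitoferrin 1, had 1 peak in every library, at its 5′ end.

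SLC25A42, a coenzyme A carrier, had 2, 1 and 2 peaks in control and 2 in each knockdown library. SLC25A17, the peroxisomal carrier of coenzyme A, FAD and NAD, had 2 in each control library and 1, 1 and 3 with NAT10 knockdown. Neither separated the groups. The pyrimidine nucleotide carriers SLC25A33 and SLC25A36 each had 1 peak in every library and a second in control replicate 2. In SLC25A36 the region in all libraries, chr3:140942462-140942729, was at the top rank in 5 of them and at percentile 22.4 in control replicate 2, where the additional peak, nearer the start, held the top rank. SLC25A51, the NAD carrier, had its start listed in all 6.

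The uncoupling-protein-like, outer membrane and orphan carriers had a peak in 9 of 10 members. SLC25A35, whose substrate is not established, had 2, 3 and 2 peaks in control and 3, 2 and 2 with NAT10 knockdown. SLC25A46, an outer membrane protein that takes part in mitochondrial fission and fusion, had 1 peak in every library, at a start inside its gene span. SLC25A45 also had 1 peak in every library, but not at one place. Its region chr11:65375192-65376124 was in the 3 control libraries at percentiles of 38.7, 53.7 and 46.3 and in knockdown replicates 2 and 3 at 19.5 and 33.4, while the peak of knockdown replicate 1 lay apart from it, at percentile 33.0. SLC25A34, an orphan, had a peak in 0 of 3 control but in 2 of 3 knockdown libraries, at different places (Fisher's exact test, two-sided p = 0.4). Both peaks ranked low, at percentile 1.63 in knockdown replicate 1 and 28.0 in knockdown replicate 3. SLC25A34 was the one carrier whose presence differed by at least 2 libraries. SLC25A27, also called UCP4, had 4 of its 5 peaks in knockdown replicate 1.

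Carrier peaks of the 6 libraries merged into 89 regions, of which 34 were in 1 library and 20 in all 6, or 38.2% and 22.5%. Over all regions the shares were 38.7% and 22.0%. Of the 34, 17 were in knockdown replicate 1 alone, the library with the longest list. The matching share over all regions is not given here. The 20 lay in 17 carriers, and not every carrier with a peak in all 6 libraries had it at one place. Of the 20 shared regions, 10 began and ended at the same base in every library, which held for 68.9% of all shared regions. The files give no reason for such fixed ends, and it was not tested. SLC25A44, a carrier of branched-chain amino acids, shows how the midpoint rule can miss a peak at a start. Its region chr1:156193932-156194247 was in all 6 libraries, while the midpoint of that peak lay inside the gene in control replicate 1 and knockdown replicate 3 alone.

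None of the 20 shared carrier regions had score ranks that did not overlap between the groups. Over the 9195 regions in all libraries, 6.38% did so toward knockdown and 3.23% toward control. The mean percentile was higher in knockdown libraries in 10 carrier regions, lower in 8 and equal in 2. The median difference was 0.78 percentile points, beside 0.0 over all shared regions. The smallest p of a carrier region was 0.2 (two-sided exact permutation test). Percentiles of 85.9 and above were tied in every library, also where the score scale ends higher. Differences among the strongest peaks, such as those of SLC25A23 and SLC25A24, therefore cannot be seen. The 2 equal regions lay at this value in every library.

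Peaks were also counted in 3 lists of genes with related roles. Of 5 carrier-family proteins with other symbols, the uncoupling proteins UCP1 to UCP3 and the outer membrane proteins MTCH1 and MTCH2, 4 had a peak and 3 had one in all libraries. Of 16 genes of the TIM22 import route, 11 had a peak and 7 had one in all. Of 11 other mitochondrial metabolite channels and carriers, among them the voltage-dependent anion channels and the pyruvate carrier subunits, 8 had a peak and 4 had one in all. Over all protein-coding genes, 60.3% had a peak and 29.4% had one in all libraries. No gene of these lists was listed throughout one group and nowhere in the other, and none had peak numbers that did not overlap. Among all genes with a peak the shares were 0.695% and 2.22%, so none in lists this short does not set these genes apart.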

How the data were processed

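The authors called acRIP-seq peaks in each library separately and deposited, per the files, chromosome, start, end, strand and a score, on GRCh38 per the labels. Peak names begin with MACS, and its version and settings, the aligner and the annotation are not given in the sources used here. The deposited score starts at 50 and is tied at 3100 or above in many peaks. Its unit is not stated, so it was used only as a rank within a library. In every library, percentiles above 85.9 were set to 85.9, the lowest point at which tied scores begin in any library. The highest peak gave a region its rank.

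Members are genes of the GRCh38.p14 table with SLC25A symbols. Strand came from the RefSeq promoter table for 40 members and from the peaks inside the gene for 5, and 3 had none; 99.4% of peaks in 1 gene lay on the table's strand. Peaks that overlapped by 1 base on a strand were merged into regions. Groups were compared by presence, by non-overlap and by two-sided exact permutation or Fisher's exact tests. Input libraries were not analysed here.

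Genes named were the 10 with the most peaks, those whose presence differed by 2 libraries, the ADP/ATP carriers and regions in one group only. Others with a peak, and the starts shown, were described after their values were seen. An item is not reported here. Members and lists were chosen with earlier results of these data known. Alternatives kept the highest-scored 50% of each list, equal lists of 17877 peaks, no strand requirement, any overlap, peaks in 1 gene, 50% coverage of a region, merging across strands, ranks among peaks in genes, each library left out and the replicate number as a block. The code was tested on simulated lists. Python 3.11.15, numpy 2.4.6, pandas 2.3.3 and scipy 1.17.1 were used.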

Additional observations from a re-analysis of the deposited data

How the results depend on the processing

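The SLC25A38 region stayed in the knockdown libraries only under all 14 alternatives, and knockdown minus control in carrier peaks stayed within 1 SD of 3.33, but turned to -1.33 with equal lists and -2.5 without knockdown replicate 1. With the 50% of peaks of highest score, 1 carrier had peaks in one group only, 2 had numbers that did not overlap and 2 regions were in one group only (0.906%, 2.2% and 1.35% over all genes or regions). With equal lists, 1 of 16 shared regions, in SLC25A4, had ranks apart, higher in control, beside 8.61% of all shared regions. Leaving out one library at a time gave 0 to 1 carriers in one group only (SLC25A34, without knockdown replicate 2). It gave 0 to 1 with numbers that did not overlap (SLC25A38 without control replicate 3, SLC25A34 without knockdown replicate 2, SLC25A17 without knockdown replicate 3). It also gave 1 to 2 regions in one group only and 1 to 7 shared regions with ranks apart. Without knockdown replicate 1, 7 of 22 shared carrier regions had ranks apart, each of them higher in control. Over all shared regions 20.8% did so in that setting, a share not split by direction. Groups of 2 and 3 separate more easily: over all genes, 1.47% to 2.7% were then in one group only and 4.6% to 6.54% had numbers apart, 2.3% to 3.45% of all regions were in one group only, and 15.0% to 21.7% of shared regions had ranks apart, up from 9.61%.

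Knockdown minus control in peak number changed sign for SLC25A23 with the 50% highest or equal lists (-0.333 in both), for SLC25A25 with equal lists or without knockdown replicate 1 (-0.333 in both; -0.333 to 0.667 over left-out libraries), for SLC25A4 with the 50% highest (-0.333), for SLC25A10 without knockdown replicate 1 (-0.667, in a range up to 0.833) and for SLC25A6 without control replicate 1 (0.167, in a range down to -1.0); the cause was not tested. Blocking on the replicate number cannot change a difference of means, so 3.33 peaks and 0.333 carriers with a peak stayed by arithmetic. With this block no carrier named fell under p = 0.5 (exact sign-flip test, smallest possible 0.25). Same-numbered libraries showed little shared deviation over all regions (correlations of 0.0295, 0.00234 and 0.0318). These values cannot tell whether same-numbered libraries were prepared together.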
